A study of Rattus norvegicus with 6 samples.

Results

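Accessible chromatin in WT INS-1 cells exposed to FSK was compared directly with that in WT cells exposed to Ex-4. The members were the 2 libraries WT FSK and WT Ex-4, chosen by their labels out of 6 in the series, and no untreated library entered the contrast. INS-1 is a rat insulinoma line used as a model of the pancreatic beta cell. WT FSK cells received 10 µM forskolin (FSK) and WT Ex-4 cells received 10 nM Exendin-4 (Ex-4), each for 1 h and after a period in serum-free medium. Both are WT for Med14, the scaffold subunit of Mediator. The other libraries were WT CON, which was untreated, and the CON, FSK and Ex-4 libraries of Med14 S983A INS-1 cells, in which an alanine replaces a serine of Med14 that protein kinase A (PKA) phosphorylates. The methods describe replicates in 2 separately made Med14 S983A lines, and which line gave these libraries, or whether cultures were pooled, is not stated for the ATAC-seq. There was 1 library per condition, so no difference between libraries could be set against replicate error and no p-value is given.

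Both agents raise cyclic AMP but enter the pathway at different points. Ex-4 is a stable agonist of the GLP-1 receptor, which beta cells carry on their surface and which signals through the stimulatory G protein to adenylate cyclase. FSK binds adenylate cyclase and activates it without a receptor. Cyclic AMP then frees the catalytic subunits of PKA, which phosphorylate nuclear proteins that include the transcription factor CREB. In ATAC-seq the Tn5 transposase cuts and tags DNA that nucleosomes leave free, so that a peak of reads marks an accessible region such as a promoter or an enhancer. The doses of FSK and Ex-4 are not matched for the cyclic AMP they raise, which was not measured in these data, so potency and route of action cannot be told apart here.

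The deposited values are FPKM, read counts scaled to peak length and to the library's reads, over 220490 peaks merged from all libraries. A merged peak is given as 0 in a library in which it was not called, except for 116 to 141 uncalled peaks in each library that carry a value. WT FSK held 251100000 reads in peaks and WT Ex-4 158800000, a ratio of 1.58, as recovered from the whole steps between low FPKM values. WT FSK had 169451 called peaks and WT Ex-4 132611. The Med14 S983A FSK and Ex-4 libraries were closer in depth, with a ratio of 1.11. The comparison used 146906 of the 220487 peaks off the mitochondrial chromosome, those whose 6 libraries averaged at least 1 FPKM, and differences are on the log2(FPKM + 0.5) scale. Positions are on rn6, as the file gives them. Genes, promoters, motifs and markers of cell identity at these peaks were not analysed here.

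Among peaks that differed at least 2-fold between the stimuli, more were higher with FSK than with Ex-4. A difference of at least 2-fold towards WT FSK was found at 26220 tested peaks (17.8%) and towards WT Ex-4 at 7493 (5.1%), so that FSK held 77.8% of the peaks past 2-fold. Most of these rested on a call in 1 library only. Of the FSK-higher peaks 19356 are listed at 0 in WT Ex-4, and of the Ex-4-higher peaks 4419 are listed at 0 in WT FSK. Quantile normalization of both libraries over all tested peaks, zeros included, brought the FSK share to 53.4%. With WT FSK thinned once to the depth of WT Ex-4 the counts were 26199 and 7534, a thinning that kept the peak lists as called at full depth.

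Among the 114827 tested peaks called in both WT libraries, where no zero enters, 6856 (5.97%) were at least 2-fold higher in FSK and 3071 (2.67%) at least 2-fold higher in Ex-4, a ratio of 2.23. FSK held 69.1% of these differences as deposited, 71.6% after quantile normalization within these peaks and 80.6% after each library was centred on its median. Both directions were thus present under each of these scalings, with FSK the larger. At each of the 6856 and the 3071 peaks the 95% exact interval of the ratio of reads excluded equality. The interval lay wholly beyond 2-fold at 5850 FSK-higher and 2299 Ex-4-higher peaks. These intervals cover counting error only, and reads without molecular identifiers are not independent molecules. A called peak can also read low in a library that called only part of it, since FPKM are divided by the merged length. That holds for every set of called peaks below, and its extent was not tested.

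The distribution of differences was lopsided. Its median over peaks called in both was -0.10, and 61.9% of the peaks were slightly lower in FSK than in Ex-4. The middle of the distribution ran from -0.33 at the lower quartile to 0.18 at the upper. The lowest and highest 1% of peaks began at -1.22 and 1.95, so the tail towards FSK was the longer. At a 4-fold rule 1033 peaks were higher in FSK and 15 in Ex-4, and at 8-fold 45 and 0. The FSK-higher peaks called in both took 3.87% of the reads of WT FSK and 1.31% of those of WT Ex-4. A further 3.88% of WT FSK reads lay in peaks missing from the Ex-4 list, against 0.637% of WT Ex-4 reads in peaks missing from the FSK list. Since FPKM are shares of a library's reads in peaks, that difference in shares alone amounts to a shift of -0.048 on the log2 scale, and the rest of the median shift was not traced to a source.

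**Figure D1:**
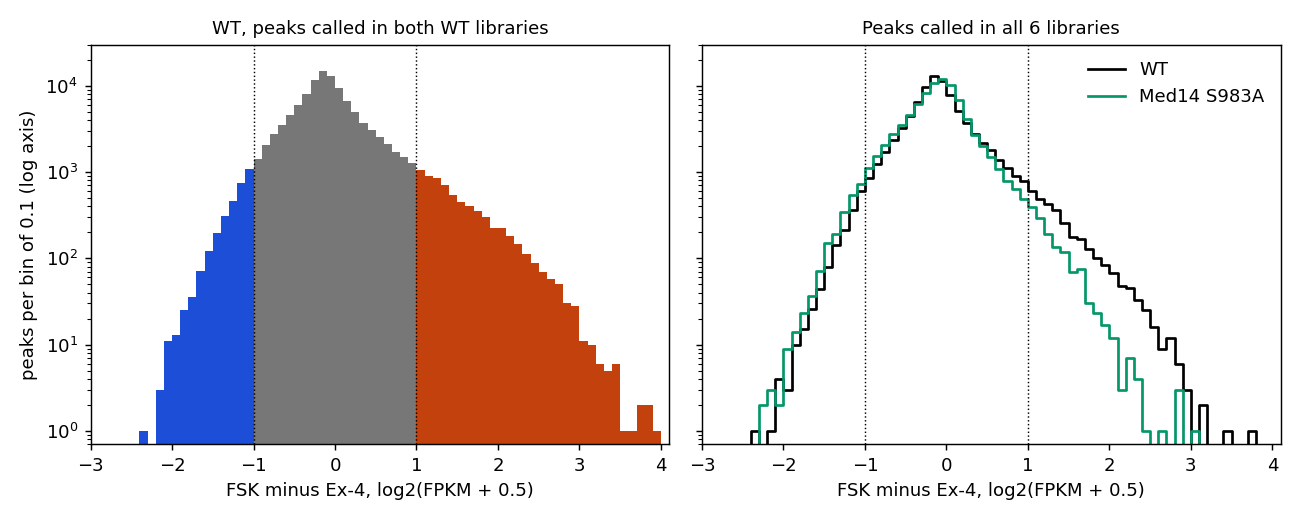
Histograms of the difference FSK minus Ex-4 on the log2(FPKM + 0.5) scale in bins of 0.1, with peaks per bin on a log axis and dotted lines at 2-fold. Left, the 114827 tested peaks called in both WT libraries, orange for those at least 2-fold higher in FSK (6856) and blue for those at least 2-fold higher in Ex-4 (3071). Right, the 86465 peaks called in all 6 libraries in WT and in Med14 S983A, where the WT tail towards FSK extends further.

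Peaks missing from one list were not all weak. Of WT FSK peaks between 4 and 8 FPKM, 8533 of 36364 (23.5%) were missing from the Ex-4 list, and of WT Ex-4 peaks at this level 896 of 28611 (3.13%) were missing from the FSK list. Between 16 and 32 FPKM the shares were 4.73% (927 peaks) and 0.329% (61 peaks). Above 32 FPKM 44 of 7303 FSK peaks were missing from the Ex-4 list, and 3 Ex-4 peaks were missing from the FSK list. A deeper library can call weaker peaks, and depth moved with this result in WT. The Med14 S983A pair, with its depth ratio of 1.11, had the same order: between 4 and 8 FPKM 5072 of 30096 FSK peaks were missing from the Ex-4 list and 1457 of 25781 Ex-4 peaks from the FSK list, and between 8 and 16 FPKM 1700 of 21898 and 495 of 21289. The order did not hold in the mutant below 1 FPKM, where Ex-4 peaks were missing from the FSK list more often.

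**Figure D2:**
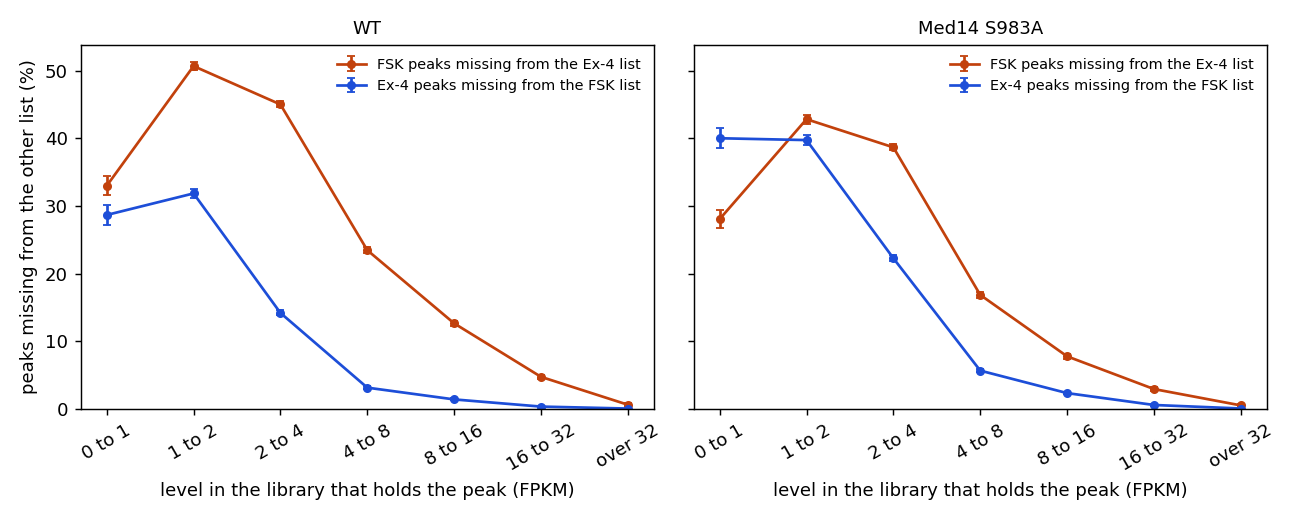
Share of the peaks called in one library that the other library's list lacks, in percent, by their FPKM in the library that holds them, for WT (left) and Med14 S983A (right). Orange points are FSK peaks missing from the Ex-4 list and blue points the reverse, and bars are 95% exact binomial intervals for counting error only. From 2 to 4 FPKM upwards the orange points lie above the blue in both genotypes.

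Strong peaks missing from the other list were short, and those of the FSK library had a close neighbour more often than peaks on both lists. The 971 tested WT FSK peaks over 16 FPKM that the Ex-4 list lacks had a median length of 176 bp, and 41.7% lay within 500 bp of another merged peak. For the 25940 at this level that are on both lists these values were 793 bp and 26.8%. The 64 WT Ex-4 peaks over 16 FPKM missing from the FSK list had a median length of 147 bp, and 28.1% had a neighbour within 500 bp, beside 26.5% of those on both lists. The part that splitting or joining of neighbouring peaks by the caller plays in these zeros was not tested.

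The share of peaks that differed varied with level and length. Among peaks called in both libraries, the FSK-higher share was 3.27% at a mean of 1 to 2 FPKM, reached 8.93% at 4 to 8 FPKM and fell to 0.647% above 32 FPKM. The Ex-4-higher share was highest at 1 to 2 FPKM, with 5.98%, and was 0.108% above 32 FPKM. At 1 to 2 FPKM the order of the counts was turned, with 257 peaks higher in FSK and 470 higher in Ex-4. Of called WT FSK peaks with 1 to 2 FPKM in that library, 13229 of 26093 (50.7%) were missing from the Ex-4 list. For WT Ex-4 peaks missing from the FSK list this was 5733 of 17993 (31.9%). Such peaks are left out of these counts, and their bearing on the turned order was not tested. By length, in 5 classes of equal size over the tested peaks, the FSK-higher share was 2.00% in the shortest class (up to 210 bp), 8.86% and 9.56% in the following classes (up to 342 and 511 bp), 6.03% up to 760 bp and 2.29% above. The Ex-4-higher share peaked in the same middle class, with 3.96%. The pattern with length was also present at one level, since among peaks of 4 to 8 FPKM the FSK-higher share ran 3.02%, 12.6%, 12.3%, 7.78% and 4.70% from the shortest class to the longest. The share of tested peaks on the FSK list only fell throughout, from 36.5% in the shortest class to 0.430% in the longest. The very strong and the very wide peaks were thus mostly within 2-fold between the stimuli.

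The peaks that differed also stood apart in the libraries outside the contrast. The 6856 FSK-higher peaks called in both had a median of 8.01 FPKM in WT FSK, 2.38 in WT Ex-4 and 1.57 in WT CON. The 3071 Ex-4-higher peaks had 5.17 in WT Ex-4, 1.93 in WT FSK and 5.86 in WT CON. Ex-4 thus stood near CON at both sets, above it at the first and below it at the second, and FSK stood away from both. Of the 3074 FSK-higher peaks called in all 6 libraries, 2436 (79.2%) had the order CON, Ex-4, FSK from lowest to highest, against 21.0% of all 86465 peaks called in all 6. Of the 1507 Ex-4-higher peaks, 1194 (79.2%) had the reverse order, against 40.7%. The place of FSK and Ex-4 in this order was fixed by the choice of the peaks, and only the place of CON was not. The shares over all 86465 include peaks with FSK above and with FSK below Ex-4. Part of each contrast with them is therefore built into the choice. A further 309 of these 1507 (20.5%) had Ex-4 above CON and CON above FSK, beside 18.4% of all 86465 peaks. Of the 3074, 632 (20.6%) had FSK above CON and CON above Ex-4, beside 8.65% of all 86465.

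The Med14 S983A FSK and Ex-4 libraries share no library with the WT contrast, so they give the same comparison in libraries that the 2-fold rule did not use. The filter on low values did use them. With the filter on the 2 WT libraries alone, the mutant median difference over all FSK-higher peaks was 0.63 in place of 1.15 and over all Ex-4-higher peaks 0 in place of -0.69, whereas over peaks called in both WT libraries it was 0.95 and -0.93. At the FSK-higher peaks called in both WT libraries, the mutant median was 5.12 FPKM with FSK, 2.28 with Ex-4 and 0.890 in CON. At the Ex-4-higher peaks it was 0.324 with FSK, 2.35 with Ex-4 and 2.79 in CON. The median difference FSK minus Ex-4 in the mutant was 0.96 over the first set and -0.96 over the second. Of the 6856 peaks 6241 (91.0%) were higher with FSK in the mutant as well, 3263 (47.6%) by 2-fold or more, and 29 went 2-fold the other way. Of the 3071 peaks 2280 (74.2%) were higher with Ex-4 in the mutant, 752 were equal, listed at 0 with both agents, 1448 (47.2%) were 2-fold or more higher with Ex-4, and 12 went 2-fold the other way. Among the 104900 peaks called in both WT libraries and under 2-fold in WT, 32.1% were higher with FSK in the mutant and 57.3% with Ex-4. Past 2-fold in the mutant were 2.73% of the 104900 towards FSK and 6.35% towards Ex-4. Over all tested peaks, which include those listed at 0, the shares past 2-fold were 12.4% and 7.96%.

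**Figure D3:**
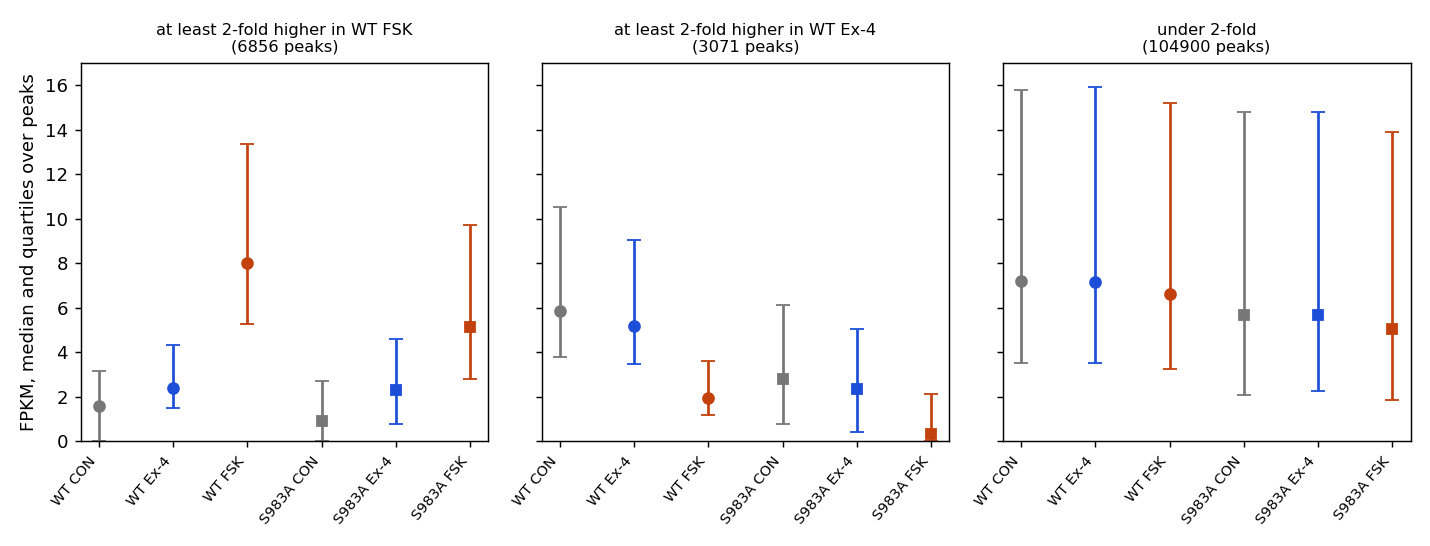
FPKM in each of the 6 libraries, as median (point) and quartiles (bars) over peaks called in both WT libraries, for peaks at least 2-fold higher in WT FSK, at least 2-fold higher in WT Ex-4, and under 2-fold. Circles are WT and squares Med14 S983A (written S983A), in grey for CON, blue for Ex-4 and orange for FSK. FSK is set apart from CON and Ex-4 in both genotypes, above them at the first set (8.01 against 1.57 and 2.38 in WT) and below them at the second.

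Restricting to the 86465 peaks called in all 6 libraries removed every zero. There 3074 peaks (3.56%) were higher in WT FSK and 1507 (1.74%) in WT Ex-4. Of the 3074, 2997 (97.5%) were higher with FSK in the mutant, against 36.8% of all 86465. By 2-fold or more 1064 (34.6%) were, against 1.59% of all, and 0 went 2-fold the other way. Of the 1507, 1483 (98.4%) were higher with Ex-4 in the mutant, against 63.2% of all. By 2-fold or more 674 (44.7%) were, against 2.44% of all, and 1 went 2-fold the other way. Read along the WT difference, the mutant median rose in each bin. Peaks between -1.5 and -1 in WT had a mutant median of -0.95 (1403 peaks), peaks between 0.5 and 1 a median of 0.39 (5989), peaks between 1.5 and 2 a median of 1.04 (659) and peaks between 2 and 3 a median of 1.44 (264), the last all of the same sign as in WT. On the FSK side the mutant medians lay below the WT medians, with 1.44 against 2.23 in the last of these bins. On the Ex-4 side they lay closer, with -0.95 against -1.13. Peaks were binned on the WT values, which makes WT the more extreme of the pair in any such reading, and the difference between the genotypes was not tested. Over these 86465 peaks Pearson's r between both differences was 0.77, a description across peaks that share libraries and are not replicates.

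The split of the differences was not alike in both genotypes. Over peaks called in both libraries of a genotype, the mutant had 4385 (4.12%) higher with FSK and 2405 (2.26%) higher with Ex-4, a ratio of 1.82 beside 2.23 in WT. Over the peaks called in all 6 it had 1379 (1.59%) and 2114 (2.44%). As deposited, Ex-4-higher peaks were thus the larger group in the mutant and FSK-higher peaks in WT. The mutant median over these peaks was -0.095. Many mutant peaks lay near the limit, with 491 between 0.9 and 1 and 722 between -1.1 and -1. The mutant counts were not taken under another scaling, so their order holds for the deposited values only. With 1 library each, genotype, line and library cannot be told apart here.

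**Figure D4:**
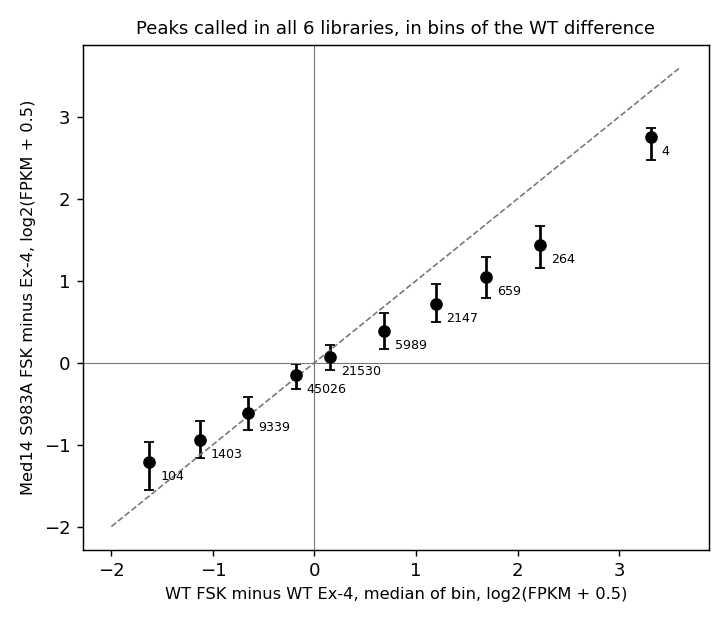
The difference FSK minus Ex-4 in Med14 S983A (median and quartiles) against that in WT (median) for peaks called in all 6 libraries, in bins of the WT difference, with the number of peaks beside each point and a dashed line of equality. The points rise throughout, from -1.21 in the lowest bin to 1.44 for the 264 peaks between 2 and 3, and lie below the line on the FSK side.

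For peaks on only one of the WT lists the mutant was less uniform. Of the 19356 FSK-higher peaks listed at 0 in WT Ex-4, 9115 (47.1%) were likewise called only with FSK in the mutant, 7029 with both agents, 566 (2.92%) only with Ex-4 and 2646 with neither. Of the 4419 Ex-4-higher peaks listed at 0 in WT FSK, 1461 (33.1%) were called only with Ex-4 in the mutant, 1364 with both, 148 (3.35%) only with FSK and 1446 with neither. Over all tested peaks these shares were 9.50% only with FSK, 72.5% with both, 6.42% only with Ex-4 and 11.6% with neither. Of the 4419, 80.7% were called in WT CON, near the 79.7% of all tested peaks, and of the 19356 14.03% were. A peak listed at 0 in one library passes the filter of 1 FPKM through the others, so these shares describe the peaks that passed and not all peaks on one list.

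Single peaks show the range. The 5 peaks with the largest difference towards FSK among those called in all 6 libraries and moving the same way in the mutant had at most 1.92 FPKM in WT CON and WT Ex-4. The first, chr18:80740394-80740965, had 0.601 FPKM in WT CON, 0.706 in WT Ex-4 and 15.4 in WT FSK. The Med14 S983A values were 1.00 for CON, 2.50 for Ex-4 and 21.2 for FSK. Its WT FSK value was 21.9 times that of Ex-4, with a 95% exact interval of 17.1 to 28.5 for counting error. Both genotypes thus had FSK alone far above the rest at this region, where the sign in the mutant, but not its size, was part of the choice.

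The second, chr13:34278765-34279747, had 1.41, 1.92 and 26.3 FPKM in WT CON, Ex-4 and FSK. It had 1.08, 2.01 and 18.1 in the mutant. The peaks chr7:132885985-132886573 and chr19:41520300-41521165 had 18.9 and 12.4 FPKM in WT FSK, and at most 1.75 in WT CON and Ex-4. In the mutant they had 16.3 and 18.0 with FSK. The remaining one, chr4:177447330-177449534, is 2204 bp long and had 5.27 FPKM in WT FSK beside 0.149 in WT Ex-4. FPKM are divided by the merged length, so a library with a shorter peak of its own inside so wide a region reads low there.

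The 5 largest differences towards Ex-4 under the same rule were peaks present in CON and low with FSK. The first, chrX:109930863-109931343, had 8.87 FPKM in WT CON, 7.19 in WT Ex-4 and 1.01 in WT FSK, and 21.1, 16.2 and 4.24 in the mutant. Its WT Ex-4 value was 7.10 times that of FSK (5.83 to 8.71). The second, chrX:68971386-68971863, had 19.0, 16.8 and 3.46 in WT, and 25.5, 18.2 and 4.86 in the mutant. These regions were higher in the mutant, and FSK was the lowest library in each genotype. The rule had fixed FSK below Ex-4 in both genotypes, but not the place of CON. The peak chr14:31409198-31409598 had 16.2, 11.8 and 2.45 in WT, and chr1:57013211-57013695 had 6.001, 6.06 and 1.09. The difference of the latter was -2.04 in WT and -1.05 in the mutant, where it had 3.08, 2.46 and 0.926. The peak chr10:14771352-14772319 had the smallest mutant difference of the 5, with 36.5, 22.0 and 4.95 FPKM in WT but 12.3, 4.11 and 3.72 in the mutant, where FSK and Ex-4 differed by -0.13 on the log2 scale.

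Without a call required in all libraries, larger differences came from peaks with a low value in 1 library, some not on that library's list. The largest among peaks above 0 in both WT libraries, chr5:25228547-25229114, had 27.7 FPKM in WT FSK and 0.211 in WT Ex-4, a ratio of 131 (84.0 to 218), and in the mutant 15.4 with FSK while it is listed at 0 with Ex-4. It is not on the WT Ex-4 list, and uncalled peaks are mostly given as 0. This ratio and its interval therefore cannot be read as a measured fold. Its nearest merged peak lies 29 bp away. The next, chr6:28462946-28463229, had 16.5 and 0.4 FPKM, is likewise not on the WT Ex-4 list and lies 23 bp from its neighbour. The other 3 (chr7:142920750-142922404, chr10:87119809-87120478 and chr17:66354533-66354946) had 10.6, 10.9 and 18.9 FPKM in WT FSK, at most 0.838 in WT Ex-4, and are listed at 0 in CON in both genotypes.

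Towards Ex-4, the 3 largest differences among peaks above 0 in both WT libraries (chr12:16085306-16085602, chr16:70458114-70458310 and chr2:227727422-227727692) were all at peaks missing from the WT FSK list and 30, 37 and 22 bp from a neighbouring merged peak. The first of them had 10.2 FPKM in WT Ex-4 and 0.363 in WT FSK but 14.1 and 13.1 in the mutant. The mutant thus held no difference of this size there. The other 2 were listed at 0 with both agents in the mutant. The WT differences of these 3 uncalled peaks cannot be read as measured folds either. The next, after the chrX peak at 109930863, was chrX:17493006-17493633, with 4.42 FPKM in WT Ex-4 and 0.578 in WT FSK, and 0.856 and a listed 0 in the mutant.

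The highest peaks that one list lacks gave a similar picture. In WT FSK, chr16:81924545-81924718 had 53.8 FPKM and chr7:143617263-143617514 had 51.8, and both are listed at 0 in CON and Ex-4 of each genotype. In the mutant they had 32.1 and 44.2 FPKM with FSK. The peak chr7:11820529-11820946, with 50.5 FPKM in WT FSK and listed at 0 in WT Ex-4, had 60.8 with FSK and 19.0 with Ex-4 in the mutant. In the other direction chr9:10803181-10803297, chr3:81342574-81342988 and chr7:12404506-12404660 had between 33.8 and 34.9 FPKM in WT Ex-4 and between 37.2 and 41.4 in WT CON, and are listed at 0 in WT FSK. In the mutant the chr3 peak had 23.2 FPKM with FSK and 41.4 with Ex-4, the chr9 peak is listed at 0 with both agents, and the chr7 peak is listed at 0 with FSK and had 35.6 with Ex-4.

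The difference was spread over all chromosomes. Medians per chromosome over peaks called in both ran from -0.16 on X to -0.040 on chromosome 10, and the FSK-higher share from 4.74% on X to 6.72% on chromosome 1. The Ex-4-higher share ran from 1.66% on chromosome 12 to 3.72% on chromosome 18. FSK-higher peaks lay in denser surroundings than all tested peaks, with a median distance to the nearest merged peak of 1349 bp beside 1686 bp, while among peaks called in both these were 1690 bp and, for peaks under 2-fold, 1884 bp. All Ex-4-higher peaks lay at a median of 1631 bp, near that of all tested peaks, and those called in both at 2171 bp.

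Neighbours tended to go together to a small degree. After an FSK-higher peak, the next tested peak 3 to 10 kb on was FSK-higher in 22.1% of pairs, against 18.3% after any peak, and more than 100 kb on in 15.5% against 14.6%. After an Ex-4-higher peak, the next peak 1 to 3 kb on was Ex-4-higher in 8.53%, against 4.75%. More than 100 kb on this was 8.20% against 7.69%. The share after an Ex-4-higher peak had no steady fall with distance, with 7.24% (against 5.54%) at 0 to 1 kb and 9.36% (against 6.84%) at 30 to 100 kb. Most FSK-higher peaks (64.1%) had no FSK-higher neighbour on either side. There were however 103 unbroken rows of 5 or more FSK-higher peaks and 13 of 10 or more, the longest of 23 peaks. Ex-4-higher peaks formed 1 row of 5 (chr1:251690937-251806743) and none longer. FSK-higher peaks were 17.8% of tested peaks and Ex-4-higher peaks 5.1%. Neither the rows nor the 64.1% were set against what these shares alone would give.

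The longest rows fell into a few stretches in which most peaks were higher with FSK. In 100-kb tiles with at least 8 tested peaks, the median tile had 17.4% FSK-higher peaks, and tiles with 50% or more, a limit chosen with the values in view, formed 182 stretches that held 1723 (6.57%) of the FSK-higher peaks. Of these, 163 were a single tile. In 162 of the 182 (89.0%) more peaks were higher with FSK than with Ex-4 in the mutant, against 42.4% of all 7143 tiles. The 182 stretches covered 206 tiles, so a stretch and a tile are not the same unit. The filter over all 6 libraries admits peaks through the mutant libraries, which bears on the 89.0%, and its part was not tested. The same rule gave 3 stretches for Ex-4, whose higher peaks were 5.1% of all tested peaks.

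The foremost stretch, chr1:52305188-52800116, held 241 tested peaks, of which 192 were FSK-higher and 2 Ex-4-higher. WT FSK had 223 of them on its list, WT Ex-4 112 and WT CON 49, and the mutant had 193 with FSK, 140 with Ex-4 and 73 in CON. The 110 peaks called in both WT libraries had a median of 11.7 FPKM in WT FSK, 3.41 in WT Ex-4 and a listed 0 in WT CON, and 107 of them were higher with FSK. Their median difference was 1.41 in WT and 0.82 in the mutant, where the medians were 11.5 FPKM with FSK, 5.81 with Ex-4 and 1.03 in CON. The peaks lay close to each other, with a median gap of 820 bp, and had like levels in WT FSK, with quartiles of 8.72 and 14.1 FPKM. The whole stretch took 1106 RPM in WT FSK over 84.0 kb of called peaks (mean 13.2 FPKM) and 370 in WT Ex-4 over 54.9 kb (mean 6.73 FPKM). A row of 23 FSK-higher peaks ran from 52643046 to 52669978. The stretch also gave the highest of the 566 runs of 200 neighbouring peaks called in both, chr1:51639975-53589103, with a median of 0.66, 87 FSK-higher peaks and 0 Ex-4-higher. The next highest run stood at 0.16, and 47 of the 566 were above 0.

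The stretch chr17:66299835-66398033 was smaller and more complete, with 43 of 47 tested peaks FSK-higher and none Ex-4-higher. WT FSK listed 46 of the 47, WT Ex-4 12 and WT CON 8, and the mutant 37, 13 and 5 in the same order. The median difference over the 12 called in both was 1.79 in WT and 1.59 in the mutant. The stretch chr1:128922408-129099569 had 72 FSK-higher and 0 Ex-4-higher of 93, with medians over its 52 peaks called in both of 1.19 in WT and 1.03 in the mutant. Further stretches were chr4:58313305-58575693 (58 of 101), chr9:111024843-111191064 (41 of 73) and chr6:25518553-25697596 (22 of 34), the last with medians of 0.89 and 0.98.

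**Figure D5:**
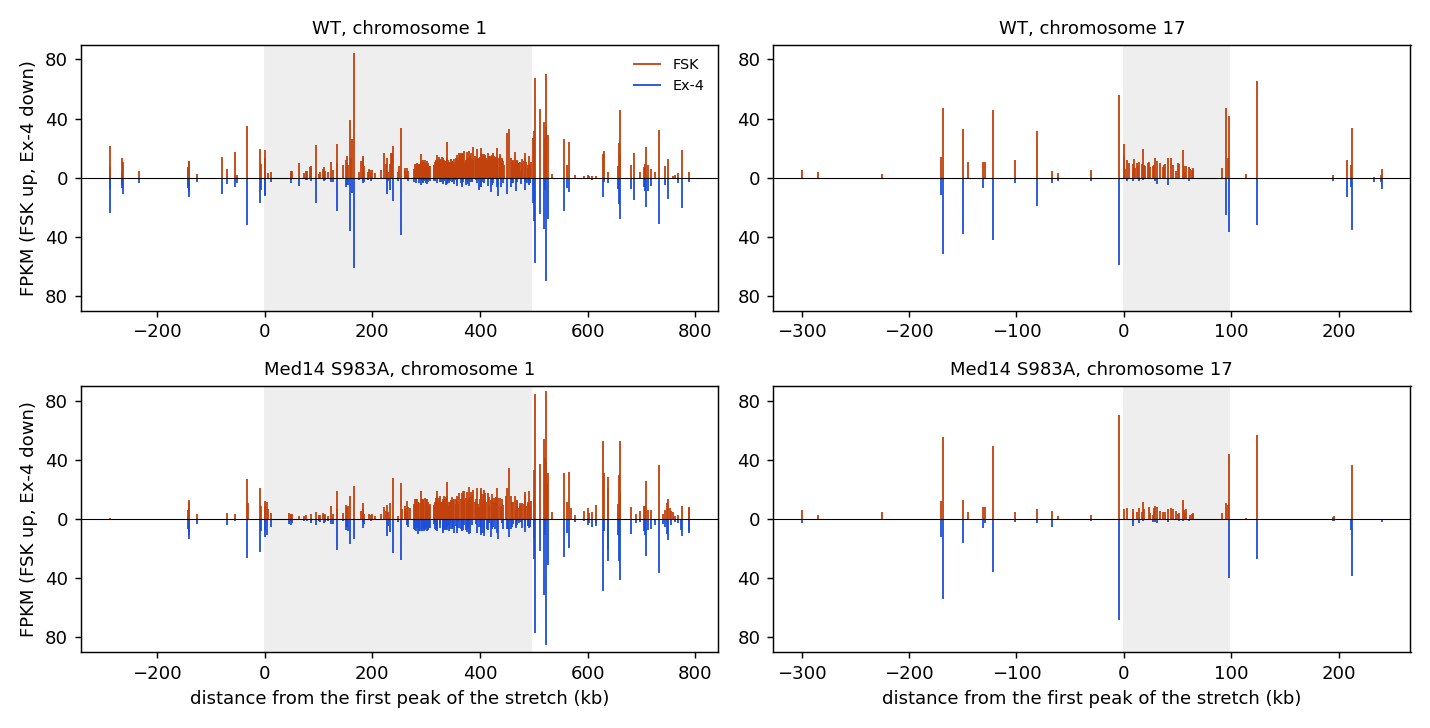
FPKM of each tested peak with FSK (orange, upwards) and with Ex-4 (blue, downwards) by distance in kb from the first peak of the chromosome 1 stretch of 241 peaks (left) and the chromosome 17 stretch of 47 peaks (right), with the stretch shaded and 300 kb on either side, in WT (top) and Med14 S983A (bottom). Inside the shading most of the close peaks have Ex-4 values lower than their FSK values. In the mutant 140 of the 241 peaks of the chromosome 1 stretch are on the Ex-4 list.

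The Ex-4 stretches were short. The stretch chr16:66617951-66698813 had 9 tested peaks, 6 of them Ex-4-higher, with a median difference of -1.20 in WT and -0.83 in the mutant, where all 9 were lower with FSK. Its peaks are on the lists of WT CON, WT FSK and WT Ex-4 alike, and their medians were 5.67, 2.81 and 4.91 FPKM. Only 6 of the 9 are on the mutant FSK list, so listed zeros can enter the mutant comparison. The stretches chr1:112600647-112689069 and chr16:72800874-72895649 had 4 of 8 each. The first of these lies in the lowest run of 200 peaks, chr1:106254529-114758294, with a median of -0.30 and 8 FSK-higher and 18 Ex-4-higher peaks. That run stood at -0.27 in the mutant.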

How the data were processed

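The deposited FPKM were computed by the authors with HOMER over merged macs2 peaks. Per their methods, reads had been trimmed (Trim Galore), mapped to rn6 (bwa mem) and filtered (samtools) beforehand. The methods name a shift of fragments after peak calling, for footprinting, and do not say whether these FPKM use shifted fragments. Differences were taken as log2(FPKM + 0.5) without further scaling, over peaks off the mitochondrial chromosome averaging at least 1 FPKM across the 6 libraries. With 1 library per condition a 2-fold size rule stood in for a test. Reads were recovered from FPKM steps (100% of low values whole within 0.15). If a step is a single end of a read pair, intervals are too narrow. Members, lists and rules were chosen with earlier results of these data known. Peaks named in the text were the 5 largest and 5 smallest differences among peaks above 0 in both WT libraries, the same among peaks called in all 6 with the same sign in the mutant, the 3 highest in each library listed at 0 in the other, and the extreme runs of 200 peaks. Stretches and rows were added after the data were seen. No column of sample values was left unused (0). Gene lists, motifs and markers were not run, since the gene tables at hand are on another build. The calculation was tested on simulated reads. Software was scipy 1.17.1, pandas 2.3.3, numpy 2.4.6 and matplotlib 3.10.9 under Python 3.11.15.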

Additional observations from a re-analysis of the deposited data

Results flagged for a closer look

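Of the 26220 tested peaks at least 2-fold higher with FSK in WT, 612 (2.33%) were at least 2-fold higher with Ex-4 in Med14 S983A. Over all tested peaks this share was 7.96%. The reverse was found at 164 (2.19%) of the 7493 peaks higher with Ex-4 in WT, beside 12.4% of all tested peaks. Opposite directions were thus less frequent than over all tested peaks, and the difference was not tested. Of these 776 peaks 775 are listed at 0 in one of the 4 libraries. The exception, chr3:122153108-122153883, had 0.550 FPKM in WT FSK and 1.93 in WT Ex-4, and 1.41 and 0.395 in the mutant.

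The 3 mitochondrial peaks, left out of every comparison, took 0.455% of the reads in peaks in WT FSK and 0.573% in WT Ex-4, 1.26 times as much in Ex-4.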

How the results depend on the processing

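FSK held the larger share of the peaks past the fold rule under all 17 alternatives run, between 53.4% and 84.3%. It was 75.01% and 80.7% with pseudocounts of 0.1 and 1, 78.2% with no filter on low values, 76.6% with an average of at least 3 FPKM, 82.3% with the filter of 1 FPKM applied to the 2 libraries compared, 81.2% after centring, 53.4% after quantile normalization, 65.0% and 83.7% at 1.5-fold and 4-fold, 76.1% with a floor of 1 FPKM, and 69.1% and 67.1% over peaks called in both WT libraries and in all 6. Chosen after seeing the data were a floor of 4 FPKM (84.3%) and, over peaks called in both, centring (80.6%), quantile normalization (71.6%) and the filter on the 2 libraries (69.4%). The counts of FSK-higher and Ex-4-higher peaks were 56523 and 15715 with no filter, 7665 and 2343 at 3 FPKM, 8118 and 1515 with the floor of 4 FPKM, 6856 and 3071 over peaks called in both, 8191 and 1973 there after centring, 7081 and 2802 there after quantile normalization, 7215 and 3177 there with the filter on the 2 libraries, and 3074 and 1507 over peaks called in all 6. The filter over the 2 libraries compared gave 42056 FSK-higher peaks. Ex-4-higher peaks numbered 18844 after quantile normalization over all tested peaks, 17903 at 1.5-fold and 3754 at 4-fold. In that normalization 14390 of the 18844 were above 0 in both libraries, against 3074 as deposited, and it averages zeros of one list with low values of the other.

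The median difference over all tested peaks, -0.018, turned positive with the filter over the 2 libraries compared (0.0076) and after centring (0.086). It was 0 with no filter, with the floor of 4 FPKM and in peaks called in both after centring, and otherwise -0.015 (floor of 1 FPKM), -0.088 (3 FPKM), -0.21 (quantile normalization), -0.076 (the same over peaks called in both), -0.10 (called in both, with either filter) and -0.11 (called in all 6). Its sign is therefore not stable. Over peaks called in both it was -0.11 with the pseudocount of 0.1, the mean of 3 FPKM, the floor of 1 FPKM and the restriction to all 6, -0.097 with the pseudocount of 1, -0.10 with no filter and with the filter over the 2 libraries, -0.24 after quantile normalization, and 0 after centring and with the floor of 4 FPKM.

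The mutant median over WT FSK-higher peaks, 1.15, stayed above 0 throughout. It was 1.21 and 1.09 (pseudocounts 0.1 and 1), 0.14 (no filter), 0.99 (3 FPKM), 0.63 (filter over the 2 libraries), 1.12 (centring), 1.37 (quantile normalization), 0.83 and 1.89 (1.5-fold and 4-fold), 0.96 (called in both), 0.93, 1.07 and 0.95 (there after centring, quantile normalization and with the filter on the 2 libraries), 0.84 (all 6) and 0.65 (floor of 4 FPKM). Over WT Ex-4-higher peaks it was -0.69, then -0.81 and -0.56 (pseudocounts), 0 (no filter, and filter over the 2 libraries), -0.95 (3 FPKM), -0.57 (centring), -0.65 and -0.20 (1.5-fold and 4-fold), -0.56 (floor of 1 FPKM), -0.96 (called in both and all 6), -0.99, -0.83 and -0.93 (called in both, after centring, quantile normalization and with the filter on the 2 libraries) and -0.44 (floor of 4 FPKM). The filter over all 6 libraries admits peaks through the mutant libraries, which bears on both medians.

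No paired analysis was possible because there is 1 library per condition, and leaving out a replicate was not run for the same reason. Counting error is small beside these differences: a peak called in both had a median of 779 reads in WT FSK and 494 in WT Ex-4, counting errors of 3.58% and 4.50%. Variation between cultures and libraries is unknown and limits every comparison.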
